A study of Mus musculus with 13 samples.

Results

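The 10 genes described here were followed across bone marrow carrying different guide combinations: Cx3cr1, Ccr2, Ly6c2, Nr4a1, Csf1r, Fcgr1, F13a1, Ms4a6c, Klf4 and Mpeg1. They were taken by gene symbol from a list of genes of classical and patrolling monocytes, as 10 of 19505 measured genes, and each of the 10 had a single row in the deposited table. Marrow RNA was measured on 13 Affymetrix arrays in 3 groups. The control group (4 arrays) carried the guide sgLuc alone. The BRSST+sgLuc group (5 arrays) carried the guide combination that the submitters call BRSST together with sgLuc, and the BRSST+sgEzh2 group (4 arrays) carried BRSST together with a guide against Ezh2, which encodes a histone methyltransferase. The labels do not spell out BRSST. All groups shared the same model: LSK cells, a stem and progenitor fraction of marrow, from Cas9 knock-in mice were given the guides and 24 h later placed into C57Bl/6J hosts that had received 7 Gy. Complete marrow was taken when a mouse showed leukemia or at 6 months, but the sources used here do not say which applied to which sample, how old the mice were or which promoter drives Cas9. Complete marrow can also hold cells that the irradiated host kept. Nothing states that the arrays came from separate mice, so a p-value measures only the spread from array to array, which may be technical.

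Monocytes are made in the marrow from granulocyte and monocyte progenitors and occur in mice as classical cells, which are high in Ly6C and CCR2, and patrolling cells, which are low in Ly6C and high in CX3CR1. Classical cells leave the marrow through CCR2 and turn into tissue macrophages or, in blood and marrow, into patrolling cells, which stay along vessel walls. The nuclear receptor NR4A1 is needed for patrolling cells, and the receptor CSF1R carries the survival signal of both. In whole marrow RNA, fewer cells of a type and less RNA per cell cannot be told apart.

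Promoter windows are shown for the genes on which the results turn and for those with a motif match. RefSeq (GRCm38.p6) held a start region for 9 of the 10 genes. The 150 bases upstream of the most upstream of these start regions' starts were searched on both strands for 8 short motifs: PU.1 (GAGGAA), C/EBP (TTGCNNAA), CRE (TGACGT), NBRE (AAAGGTCA), a KLF CACCC box (CCACACCC), RUNX (TGTGGT), IRF and a TATA box (TATAAA). The RefSeq gene spans of Ccr2 and Nr4a1 begin further upstream, so their windows lie inside the gene. Windows of Ly6c2 and Ms4a6c lie partly inside it. The windows of the 6 genes below lie at chr9:120068297-120068446 (minus strand) for Cx3cr1, chr9:124102033-124102182 (plus strand) for Ccr2, chr15:75111972-75112121 (minus strand) for Ly6c2, chr13:37050245-37050394 (minus strand) for F13a1, chr3:96293970-96294119 (minus strand) for Fcgr1 and chr19:12460620-12460769 (plus strand) for Mpeg1. They are written 5′ to 3′ in the direction of the gene, and capitals mark a match to the PU.1 or the RUNX letters.
Cx3cr1: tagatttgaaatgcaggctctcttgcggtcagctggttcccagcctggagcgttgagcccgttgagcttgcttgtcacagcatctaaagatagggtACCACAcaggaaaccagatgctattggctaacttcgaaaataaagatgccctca
Ccr2: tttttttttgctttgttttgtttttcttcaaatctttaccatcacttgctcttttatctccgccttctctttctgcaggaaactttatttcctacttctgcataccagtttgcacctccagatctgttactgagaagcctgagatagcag
Ly6c2: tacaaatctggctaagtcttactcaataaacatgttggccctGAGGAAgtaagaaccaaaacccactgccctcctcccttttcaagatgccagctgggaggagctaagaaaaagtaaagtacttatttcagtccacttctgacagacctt
F13a1: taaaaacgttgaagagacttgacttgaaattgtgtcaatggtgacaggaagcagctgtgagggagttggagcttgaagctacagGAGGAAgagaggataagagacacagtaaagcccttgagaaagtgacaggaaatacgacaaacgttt
Fcgr1: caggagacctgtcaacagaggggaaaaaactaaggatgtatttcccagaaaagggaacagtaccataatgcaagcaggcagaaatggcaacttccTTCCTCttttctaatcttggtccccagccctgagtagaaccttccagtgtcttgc
Mpeg1: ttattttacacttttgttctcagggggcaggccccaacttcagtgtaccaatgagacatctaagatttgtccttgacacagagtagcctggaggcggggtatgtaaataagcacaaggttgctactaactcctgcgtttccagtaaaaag

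The PU.1 letters occurred in the windows of Ly6c2, F13a1 and Fcgr1, which is 3 of 9, against 14.3% of 27025 start regions of the same length. PU.1 is the master transcription factor of myeloid cells. The RUNX letters occurred in 1 of 9, Cx3cr1, against 8.51% of all. None of the other 6 motifs matched any of the 9 windows, and the share of all windows with a match ran from 0.773% for NBRE to 8.08% for the TATA box. Windows of Klf4 and Nr4a1 were rich in G and C, at 74.0% and 75.3%, while those of the other 7 lay between 38.0% and 48.7% (median of all, 54.0%). A match is a description of letters, and no binding was measured. Ly6c2 has a near copy, Ly6c1, beside it on chromosome 15: 208 of 266 aligned bases of their start regions were identical (78.2%). Probe and transcript sequences were not compared, so whether the Ly6c2 row also holds signal of Ly6c1 was not tested.

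Values are deposited log2 signals, so a difference of 1 is a 2-fold change. Signals of different genes come from different probes and are not compared with each other. Array medians ran from 7.19 to 7.32. Ezh2 had a mean signal of 8.78 ± 0.50 (SD, n = 4) in BRSST+sgEzh2, 9.82 ± 0.50 (SD, n = 5) in BRSST+sgLuc and 10.35 ± 0.28 (SD, n = 4) in sgLuc, and its difference between the BRSST groups did not pass (log2 -1.05 ± 0.26, SE, limma adjusted p = 0.0808). Y-linked genes split the arrays into a high class, with 2 BRSST+sgEzh2, 2 BRSST+sgLuc and 4 sgLuc arrays, and a low class with the rest. No batch is named in the labels. The submitters' sample numbers run without a break through both BRSST groups and jump before sgLuc. What the numbers mark is not stated, and anything they mark cannot be told apart from the group. Of the neutrophil, B lineage, T and NK, dendritic, basophil and erythroid lists, the neutrophil genes had a mean signal of 12.05 to 12.52 on every array.

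Cx3cr1, the fractalkine receptor and the defining surface gene of patrolling monocytes, was low in both BRSST groups. Its signals on the 4 sgLuc arrays were 8.51, 8.68, 8.82 and 8.88. On the 5 BRSST+sgLuc arrays they were 5.76, 6.82, 6.96, 6.42 and 5.47. On the 4 BRSST+sgEzh2 arrays they were 6.72, 6.73, 6.59 and 7.52. Every BRSST array lay below every sgLuc array, and replicate 4 of BRSST+sgEzh2 stood above the other 3 of its group. Cx3cr1 fell by 2.44 ± 0.29 (log2, SE, n = 5 and 4) between BRSST+sgLuc and sgLuc, or 5.41-fold (limma adjusted p = 0.000107), and it fell by 1.83 ± 0.30 between BRSST+sgEzh2 and sgLuc, or 3.56-fold (limma adjusted p = 0.00183). BRSST+sgEzh2 lay 0.60 ± 0.29 above BRSST+sgLuc (95% interval -0.01 to 1.22), which did not pass (limma adjusted p = 0.364). Both calls against sgLuc held when any single array of the groups compared was left out. Cx3cr1 passed the filter on low signals only through sgLuc, since it lay above the array median on 4 sgLuc arrays, 1 BRSST+sgEzh2 array and 0 BRSST+sgLuc arrays. Its differences from sgLuc are therefore a description. In BRSST+sgLuc it sat between the 21.6 and 46.0 percentile of its array, where background limits a fold change.

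Nr4a1, the nuclear receptor that patrolling monocytes need and also an immediate early gene of stressed or stimulated cells, did not follow Cx3cr1. Signals were 8.95, 8.80, 9.02 and 9.30 with sgLuc. BRSST+sgLuc arrays had 10.29, 8.84, 8.60, 10.29 and 9.34, which was the widest spread of the gene in any group (SD 0.80, against 0.37 and 0.21). BRSST+sgEzh2 arrays had 9.55, 9.58, 10.27 and 9.47, all above the highest sgLuc array. The differences from sgLuc were 0.46 ± 0.32 in BRSST+sgLuc (limma adjusted p = 0.356) and 0.70 ± 0.34 in BRSST+sgEzh2 (limma adjusted p = 0.229), with 95% intervals of -0.24 to 1.15 and -0.03 to 1.43. Neither passed in the main fit, and BRSST+sgEzh2 and BRSST+sgLuc differed by 0.24 ± 0.32 (limma adjusted p = 0.799). With array quality weights both differences from sgLuc passed, at 1.01 in BRSST+sgLuc (limma adjusted p = 0.00413) and 0.74 in BRSST+sgEzh2 (limma adjusted p = 0.0417). The latter also passed with only the 2 groups in the fit (0.70, limma adjusted p = 0.0276). Both high BRSST+sgLuc arrays, replicates 1 and 4, are those of the high Y-linked class. Within that class alone, chosen after seeing the data, Nr4a1 was 1.28 higher in BRSST+sgLuc than in sgLuc (limma adjusted p = 0.000281) and fell by 0.73 from BRSST+sgLuc to BRSST+sgEzh2 (limma adjusted p = 0.0306, 2 arrays each), so its direction between the BRSST groups depends on which arrays are used. The part of the Y-linked class in this result was not tested.

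Ccr2, the receptor for Ccl2 through which classical monocytes leave the marrow, was lower in BRSST+sgLuc. Signals were 10.81, 10.69, 10.77 and 10.94 with sgLuc, and 8.83, 9.88, 10.13, 8.88 and 8.44 with BRSST+sgLuc, with no overlap. BRSST+sgEzh2 arrays had 10.32, 9.33, 10.11 and 10.77 and reached into both ranges. Ccr2 fell by 1.57 ± 0.33 between BRSST+sgLuc and sgLuc, or 2.98-fold (limma adjusted p = 0.00484), a call that held without any single array. Between BRSST+sgEzh2 and sgLuc the difference was -0.67 ± 0.35 (95% interval -1.43 to 0.08, limma adjusted p = 0.264), and between BRSST+sgEzh2 and BRSST+sgLuc it was 0.90 ± 0.33 (0.19 to 1.62, limma adjusted p = 0.241). Neither of these passed in the main fit. With array quality weights both did, at -0.67 (limma adjusted p = 0.0428) and 1.12 (limma adjusted p = 0.0154).

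Ly6c2, which encodes the Ly6C surface protein used to sort classical monocytes and is also expressed by other marrow cells, differed little. It ran from 12.61 to 12.70 with sgLuc, 12.06 to 12.62 with BRSST+sgLuc and 12.13 to 12.53 with BRSST+sgEzh2. All 4 BRSST+sgEzh2 arrays lay just below the lowest sgLuc array, and 1 BRSST+sgLuc array reached the sgLuc range. The differences from sgLuc were -0.31 ± 0.13 in BRSST+sgLuc (limma adjusted p = 0.11) and -0.24 ± 0.14 in BRSST+sgEzh2 (limma adjusted p = 0.324), with 95% intervals that go no lower than -0.60 and -0.55. Without BRSST+sgLuc replicate 2 the first was -0.38 (limma adjusted p = 0.0441). With the Y-linked class as a block it was -0.52 (limma adjusted p = 0.00852), and the second was -0.41 (limma adjusted p = 0.0469). The signal sat at the 98.4 to 99.6 percentile of its array, where differences can be compressed.

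F13a1, the A subunit of clotting factor XIII and a gene high in classical monocytes, was the only member above sgLuc by the test, in BRSST+sgEzh2. Signals were 9.69, 9.70, 10.09 and 9.98 with sgLuc, and 9.91, 10.23, 10.83, 10.08 and 9.35 with BRSST+sgLuc. BRSST+sgEzh2 arrays had 11.25, 10.74, 11.16 and 11.15, all above the sgLuc arrays. F13a1 rose by 1.21 ± 0.24 between BRSST+sgEzh2 and sgLuc, or 2.31-fold (limma adjusted p = 0.00618), and the call held without any single array. BRSST+sgLuc differed from sgLuc by 0.22 ± 0.23 (95% interval -0.27 to 0.70, limma adjusted p = 0.554). Between the BRSST groups the difference was 0.99 ± 0.23, with limma adjusted p = 0.0594, just outside the threshold. It passed without BRSST+sgLuc replicate 2 (1.03, limma adjusted p = 0.0452) or replicate 3 (1.18, limma adjusted p = 0.00707).

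**Figure D1:**
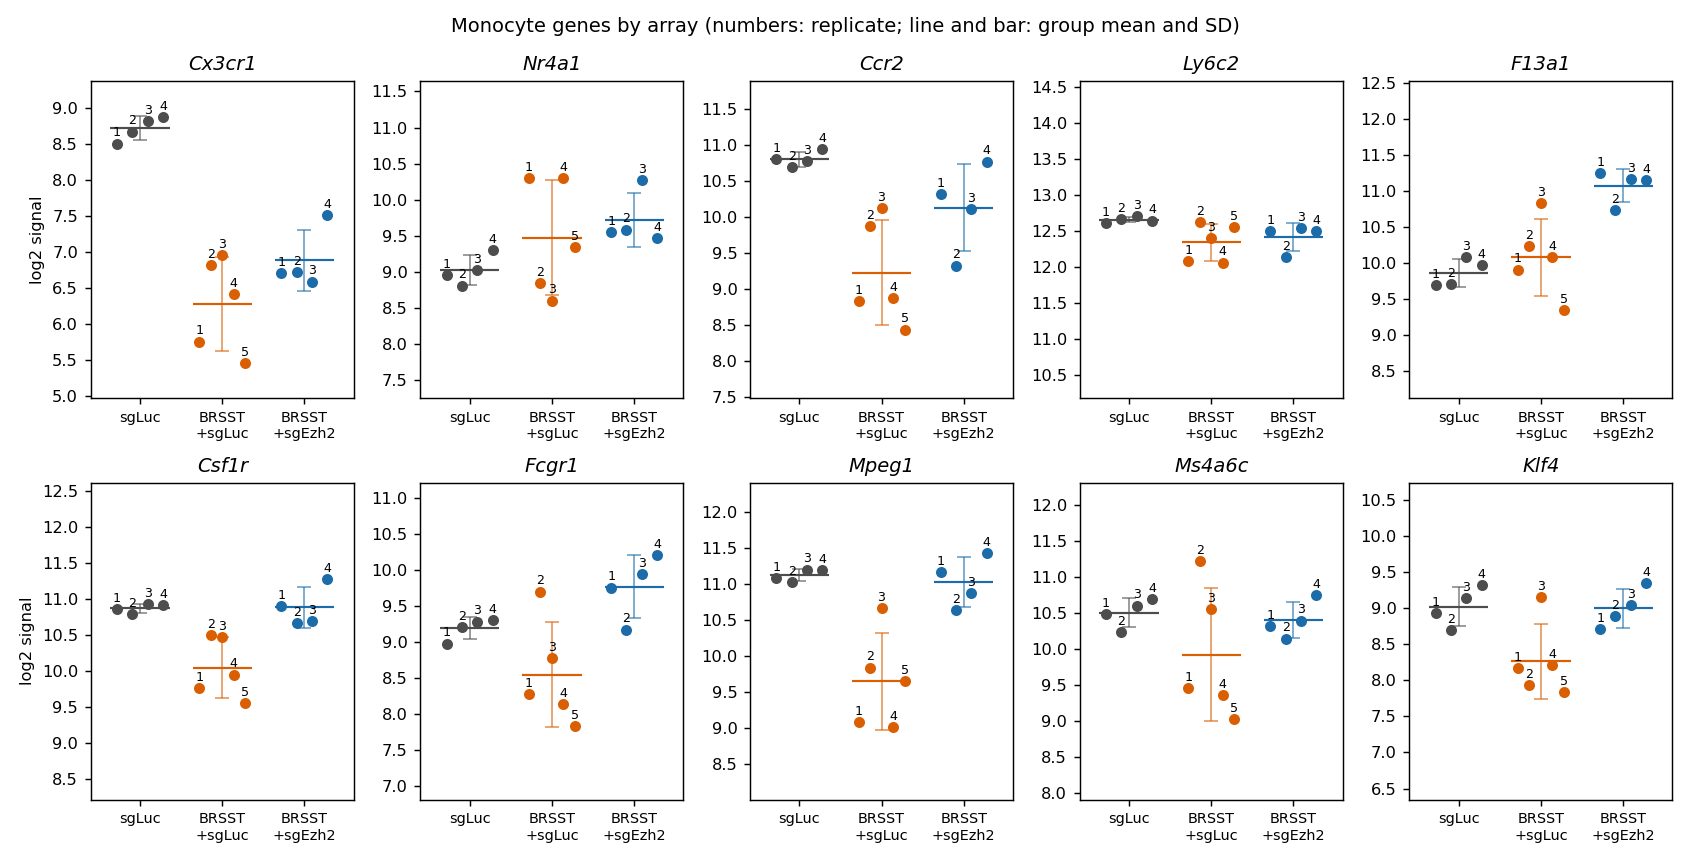
Log2 signal (vertical axis) of each of the 10 genes on each array, by group (horizontal axis), with replicate numbers, the group mean as a line and the SD as a bar. Every panel spans the same number of log2 units. Cx3cr1 runs from 8.51 to 8.88 with sgLuc and from 5.47 to 7.52 with both BRSST groups, and F13a1 is highest with BRSST+sgEzh2 (10.74 to 11.25).

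Csf1r, the receptor for the growth factor CSF1, was lower in BRSST+sgLuc than in either other group. It had signals of 10.85, 10.78, 10.92 and 10.91 with sgLuc and of 9.76, 10.50, 10.46, 9.94 and 9.54 with BRSST+sgLuc. BRSST+sgEzh2 arrays had 10.89, 10.66, 10.69 and 11.27, all above every BRSST+sgLuc array and overlapping sgLuc. Csf1r fell by 0.82 ± 0.19 between BRSST+sgLuc and sgLuc, or 1.77-fold (limma adjusted p = 0.00842). BRSST+sgEzh2 lay 0.84 ± 0.19 above BRSST+sgLuc, which missed the threshold (limma adjusted p = 0.0603). That difference passed without BRSST+sgLuc replicate 2 (0.95, limma adjusted p = 0.0207) or replicate 3 (0.94, limma adjusted p = 0.0185). BRSST+sgEzh2 and sgLuc differed by 0.01 ± 0.20, with a 95% interval of -0.42 to 0.45 (limma adjusted p = 0.98).

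Fcgr1, the high-affinity IgG receptor CD64, had its highest mean in BRSST+sgEzh2. Signals were 8.98, 9.21, 9.29 and 9.30 with sgLuc, 8.28, 9.70, 8.78, 8.14 and 7.83 with BRSST+sgLuc, and 9.76, 9.17, 9.95 and 10.21 with BRSST+sgEzh2. The differences were -0.65 ± 0.31 between BRSST+sgLuc and sgLuc (limma adjusted p = 0.152), 0.58 ± 0.33 between BRSST+sgEzh2 and sgLuc (limma adjusted p = 0.304) and 1.22 ± 0.31 between the BRSST groups (limma adjusted p = 0.082). None passed. Without BRSST+sgLuc replicate 2, Fcgr1 fell by 0.94 between BRSST+sgLuc and sgLuc (limma adjusted p = 0.00796) and rose by 1.51 from BRSST+sgLuc to BRSST+sgEzh2 (limma adjusted p = 0.00481). With all arrays and the Y-linked class as a block, these differences were -0.999 (limma adjusted p = 0.0402) and 1.28 (limma adjusted p = 0.0389), and both passed with array quality weights too (limma adjusted p = 0.00251 and 0.00196). The difference of BRSST+sgEzh2 from sgLuc did not pass with any single array left out (limma adjusted p from 0.221 to 0.515) and passed with array weights (limma adjusted p = 0.0347).

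Mpeg1, perforin-2, a pore-forming protein of macrophages and monocytes, was the single member that passed between the BRSST groups. Signals were 11.08, 11.03, 11.20 and 11.19 with sgLuc, and 9.08, 9.84, 10.66, 9.01 and 9.64 with BRSST+sgLuc. BRSST+sgEzh2 arrays had 11.16, 10.63, 10.87 and 11.43. Replicate 3 of BRSST+sgLuc reached just above the lowest BRSST+sgEzh2 array, and all BRSST+sgLuc arrays lay below sgLuc. Mpeg1 fell by 1.48 ± 0.28 between BRSST+sgLuc and sgLuc, or 2.79-fold (limma adjusted p = 0.00234). It rose by 1.38 ± 0.28 from BRSST+sgLuc to BRSST+sgEzh2, or 2.6-fold (limma adjusted p = 0.0371). Leaving out replicate 1, 3 or 4 of BRSST+sgEzh2, or replicate 1, 4 or 5 of BRSST+sgLuc, ended the call of this rise (limma adjusted p up to 0.133). BRSST+sgEzh2 and sgLuc differed by -0.10 ± 0.29 (95% interval -0.73 to 0.52, limma adjusted p = 0.882).

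Ms4a6c, a membrane protein of the MS4A family found in myeloid cells, spread more in BRSST+sgLuc than any other member (SD 0.92, against 0.20 in sgLuc and 0.25 in BRSST+sgEzh2). Its signals there were 9.45, 11.22, 10.55, 9.36 and 9.03, so that replicate 2 was above and replicates 1, 4 and 5 below all arrays of the other groups. It ran from 10.23 to 10.70 with sgLuc and from 10.15 to 10.74 with BRSST+sgEzh2. The difference of BRSST+sgLuc from sgLuc was -0.58 ± 0.36 (limma adjusted p = 0.272), and -0.91 without replicate 2 (limma adjusted p = 0.0217). Ms4a6c is 1 of several similar genes of its family, so its signal may hold that of a relative.

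Klf4, a zinc finger transcription factor of monocyte differentiation, had signals of 8.94, 8.69, 9.14 and 9.33 with sgLuc and of 8.17, 7.94, 9.16, 8.22 and 7.84 with BRSST+sgLuc. Replicate 3 of BRSST+sgLuc lay inside the sgLuc range and the other 4 below it. BRSST+sgEzh2 arrays ran from 8.72 to 9.35. Klf4 fell by 0.76 ± 0.24 between BRSST+sgLuc and sgLuc, or 1.69-fold (limma adjusted p = 0.0321). This call ended without any of 7 arrays, replicates 1, 2, 4 or 5 of BRSST+sgLuc or 1, 3 or 4 of sgLuc (limma adjusted p up to 0.0944), and with only the 2 groups in the fit (limma adjusted p = 0.0562). BRSST+sgEzh2 was 0.74 ± 0.24 above BRSST+sgLuc (limma adjusted p = 0.177), or 0.96 when replicate 3 of BRSST+sgLuc was left out (limma adjusted p = 0.00953), and within -0.55 to 0.51 of sgLuc (95% interval).

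Counted together, 5 of the 10 genes fell between BRSST+sgLuc and sgLuc (Cx3cr1, Ccr2, Mpeg1, Csf1r and Klf4) and 0 rose, against 11.7% of all genes tested that fell and 10.8% that rose. In 4 of the 5 the groups did not overlap, against 9.82% of all genes. Cx3cr1 is in both counts but passed the filter only through sgLuc, so its place in every count against sgLuc is a description. The median difference of the 10 was -0.70, against 0.01 over all genes tested. Between BRSST+sgEzh2 and sgLuc, 1 rose (F13a1) and 1 fell (Cx3cr1), against 5.51% and 3.86% of all genes tested, and the median was -0.06, against 0.02. In that comparison Nr4a1 and F13a1 lay above sgLuc without overlap, where 14.2% of all genes did, and Cx3cr1 and Ly6c2 below it, where 9.06% did. From BRSST+sgLuc to BRSST+sgEzh2, 1 of 10 rose (Mpeg1) and 0 fell, against 0.67% of all genes tested that rose and 0.113% that fell. All 10 were higher in BRSST+sgEzh2, as were 5576 of all 10601 genes tested. The median difference was 0.79, against 0.01 over all genes, and 1, Csf1r, did not overlap, where 2.52% of all genes did. An upward shift was not particular to the 10: B lineage genes (9 of 9 higher, median 0.815) and T and NK genes (8 of 9 higher, median 1.216) had it too. All 9 erythroid genes were lower. Apart from Nr4a1, most of the 10 genes varied together across arrays, so their directions are not independent. The comparisons share arrays: each BRSST group is set against the same 4 sgLuc arrays, and the BRSST groups against each other. Within the arrays of the high Y-linked class, chosen after seeing the data, 9 of 10 passed between BRSST+sgLuc and sgLuc (8 fell, and Nr4a1 rose), 4 between BRSST+sgEzh2 and sgLuc, and 6 between the BRSST groups. These counts are a description. More of all 10601 genes passed there as well: 1654 higher and 2001 lower, 902 and 972, and 514 and 208.

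**Figure D2:**
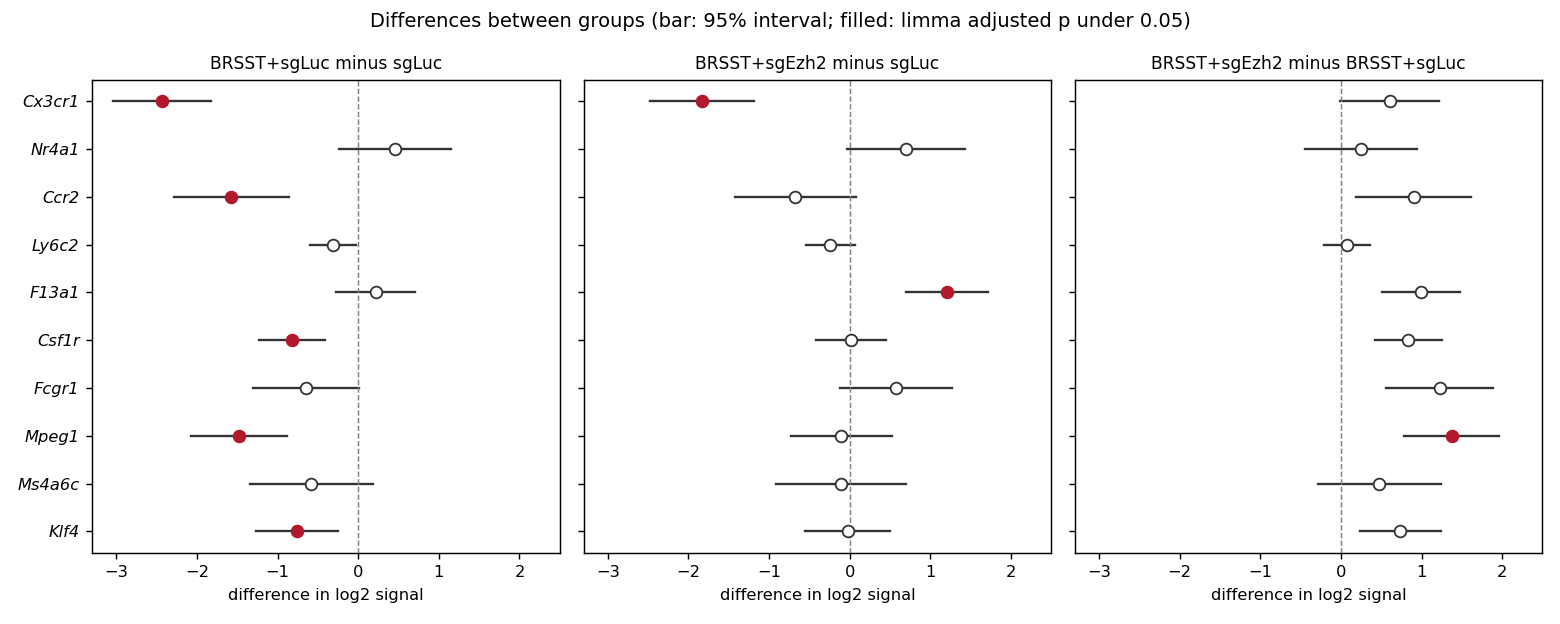
Difference in log2 signal (horizontal axis) of each gene (vertical axis) in the 3 comparisons, with its 95% interval, filled where limma's adjusted p was under 0.05. Against sgLuc, 5 genes are filled in BRSST+sgLuc and 2 in BRSST+sgEzh2. Cx3cr1, which passed the filter only through sgLuc, is filled in both. Between the BRSST groups only Mpeg1 is filled.

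Signals of Ly6c2 and Ccr2, genes of classical cells, were also set against that of Cx3cr1 within each array. Cx3cr1 passed the filter only through sgLuc and lay at the 21.6 to 46.0 percentile of its array in BRSST+sgLuc, while Ly6c2 lay at the 98.4 to 99.6 percentile, so these differences are of deposited signals near both ends of the scale. Ly6c2 minus Cx3cr1 was 3.93 ± 0.15 (SD, n = 4) on sgLuc arrays, 6.05 ± 0.66 (SD, n = 5) on BRSST+sgLuc arrays and 5.52 ± 0.43 (SD, n = 4) on BRSST+sgEzh2 arrays. The change from sgLuc was 2.12 in BRSST+sgLuc (two-sided exact permutation p = 0.0159, adjusted p = 0.0429 over 6 tests) and 1.59 in BRSST+sgEzh2 (exact permutation p = 0.0286, adjusted p = 0.0429). Ccr2 minus Cx3cr1 was 2.08 ± 0.15 with sgLuc, 2.94 ± 0.28 with BRSST+sgLuc and 3.24 ± 0.45 with BRSST+sgEzh2 (SD, n as above). Its change was 0.86 in BRSST+sgLuc (exact permutation p = 0.0159, adjusted p = 0.0429) and 1.16 in BRSST+sgEzh2 (exact permutation p = 0.0286, adjusted p = 0.0429). All 9 BRSST arrays lay above all 4 sgLuc arrays in both measures, and these p-values are the smallest that 126 and 70 splits can give. Neither measure passed between the BRSST groups: Ly6c2 minus Cx3cr1 differed by -0.53 (exact permutation p = 0.206, adjusted p = 0.248) and Ccr2 minus Cx3cr1 by 0.30 (exact permutation p = 0.27, adjusted p = 0.27). The 4 calls against sgLuc rest on few arrays. Both in BRSST+sgEzh2 ended with any array left out (adjusted p from 0.0686 to 0.0857), but no p under 0.05 was then possible, so this loss was fixed in advance. Both in BRSST+sgLuc ended without any one sgLuc array (adjusted p = 0.0857). No adjusted p under 0.05 over the 6 tests was possible then either, so this loss was also fixed in advance. The 4 calls do not show that the transcripts changed unequally or that either gene stayed the same.

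**Figure D3:**
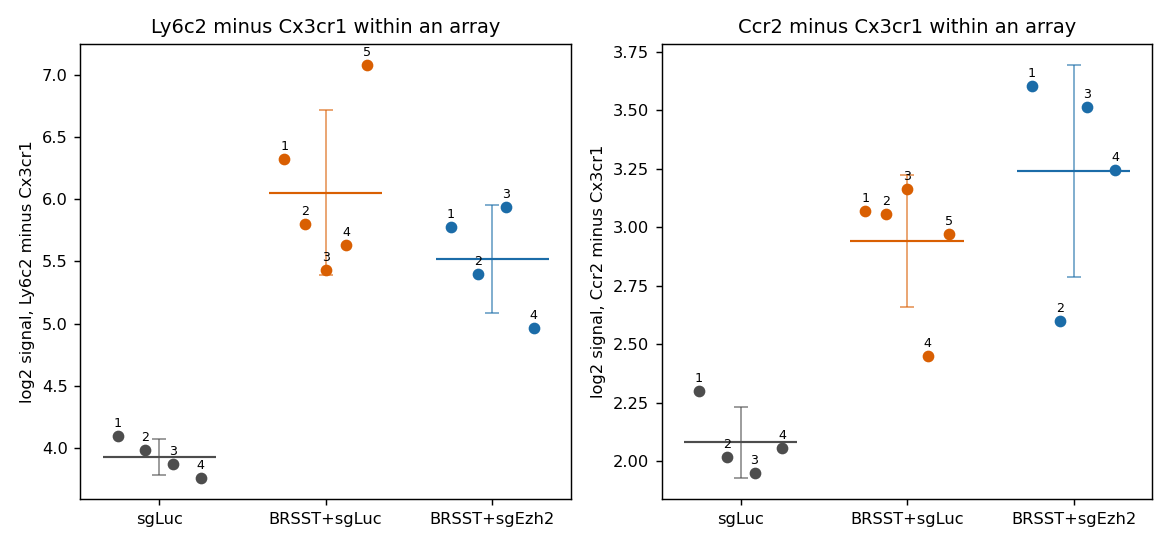
Log2 signal of Ly6c2 minus that of Cx3cr1 (left, vertical axis) and of Ccr2 minus that of Cx3cr1 (right) on each array by group, with replicate numbers, means and SDs. The axes do not start at 0. The sgLuc arrays run from 3.76 to 4.10 and from 1.95 to 2.30, and the BRSST arrays from 4.97 to 7.08 and from 2.45 to 3.60.

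The genes spread most within BRSST+sgLuc, whose arrays held 65.6% to 91.6% of each gene's squared deviation from the group means. For 7 of the 10 (all but Nr4a1, Ly6c2 and Klf4) replicates 2 and 3 of that group were its highest arrays and replicates 1, 4 and 5 lower. Over the 13 arrays, as deviations from group means, 35 of the 36 pairs without Nr4a1 correlated positively (median Pearson r 0.63, highest 0.95 for Cx3cr1 and Csf1r), and the exception was near 0 (-0.06). Nr4a1 correlated negatively with each of the other 9 (r from -0.82 with Mpeg1 to -0.22). Without the 2 arrays farthest from the median, r was 0.91 for Cx3cr1 and Csf1r and -0.68 for Nr4a1 and Mpeg1. Some other pairs did not hold: Klf4 and Mpeg1 went from 0.62 to -0.13, and Ly6c2 and F13a1 from 0.16 to 0.02. By rank (Spearman), Nr4a1 and Klf4 stood at 0.07 over the 13 arrays. These are descriptions over arrays that share a few spread-out samples, with no test. The genes most like Cx3cr1 by this measure were Zfp385a (r = 0.94), Galnt2 (0.91) and Ctsc, a lysosomal protease (0.91). Most like Ccr2 were Adgre1, the macrophage antigen F4/80 (0.96), Serpinb1a, an elastase inhibitor (0.95), and Dglucy (0.95). Most like Ly6c2 were its near copy Ly6c1 (0.97), Ctsh, a lysosomal protease (0.92), and Rassf4 (0.91). Without the 2 farthest arrays, r of these 9 pairs ran from 0.82 to 0.96.

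Other genes of the same cells were counted from lists of textbook markers. Of 13 other patrolling monocyte genes tested, 2, Ace and Itgax, passed the filter only through sgLuc and so had to be high there. With them counted, 8 of the 13 fell and 0 rose in BRSST+sgLuc against sgLuc (median difference -0.68, against 0.01 over all genes). Of all genes tested, 11.7% fell and 10.8% rose there. Adgre4, an adhesion receptor, fell by 2.46 ± 0.41 (limma adjusted p = 0.00126). Values of the other named genes are a description: Ace, angiotensin-converting enzyme, ran from 7.57 to 9.24 with sgLuc and from 4.79 to 6.41 with BRSST+sgLuc, and Itgax, the integrin CD11c, differed by -1.69 ± 0.18. In BRSST+sgEzh2 against sgLuc 5 fell, Ace among them (arrays at 4.91 to 7.67), and 0 rose (median -0.27), where 3.86% of all genes tested fell and 5.51% rose. Itgax ran from 6.02 to 6.86 there, against 7.33 to 7.92 with sgLuc. As Ace and Itgax passed the filter only through sgLuc, this count is a description. Gngt2, a G protein subunit, fell by 1.70 ± 0.35 (limma adjusted p = 0.00798). The calls of Adgre4 in BRSST+sgLuc and of Gngt2 in BRSST+sgEzh2 held without any single array. In BRSST+sgEzh2 against BRSST+sgLuc 0 of 13 passed by limma, while 4 had an unadjusted p under 0.05, and the median was 0.24. Pparg and Cd36 did not pass the filter.

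Of 14 other classical monocyte genes, 1 rose and 2 fell in BRSST+sgLuc against sgLuc (median -0.11), and 1 rose and 1 fell in BRSST+sgEzh2 (median -0.08). Over all genes tested, 10.8% rose and 11.7% fell in BRSST+sgLuc, and 5.51% and 3.86% in BRSST+sgEzh2, so the counts of this list lie near those shares. The gene that rose was Cd14, the co-receptor for bacterial lipopolysaccharide, in both. Cd14 arrays ran from 7.70 to 8.33 with sgLuc, 9.94 to 11.20 with BRSST+sgLuc and 10.26 to 10.73 with BRSST+sgEzh2. Its rise was 2.54 ± 0.25 with BRSST+sgLuc, or 5.8-fold (limma adjusted p = 2.29e-05), and 2.44 ± 0.26 with BRSST+sgEzh2, or 5.43-fold (limma adjusted p = 5.66e-05). Lyz2, lysozyme, fell by 0.76 ± 0.21 in BRSST+sgLuc (limma adjusted p = 0.0206) and Gda, guanine deaminase, fell by 0.32 ± 0.09 (limma adjusted p = 0.0168). Gda lost its call without sgLuc replicate 1, and Lyz2 without BRSST+sgLuc replicate 1 or 4 or sgLuc replicate 1. Ifitm3 fell by 0.38 ± 0.10 in BRSST+sgEzh2 (limma adjusted p = 0.0305, lost without any of 6 arrays). In BRSST+sgEzh2 against BRSST+sgLuc 0 of 14 passed by limma (3 with an unadjusted p under 0.05).

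**Figure D4:**
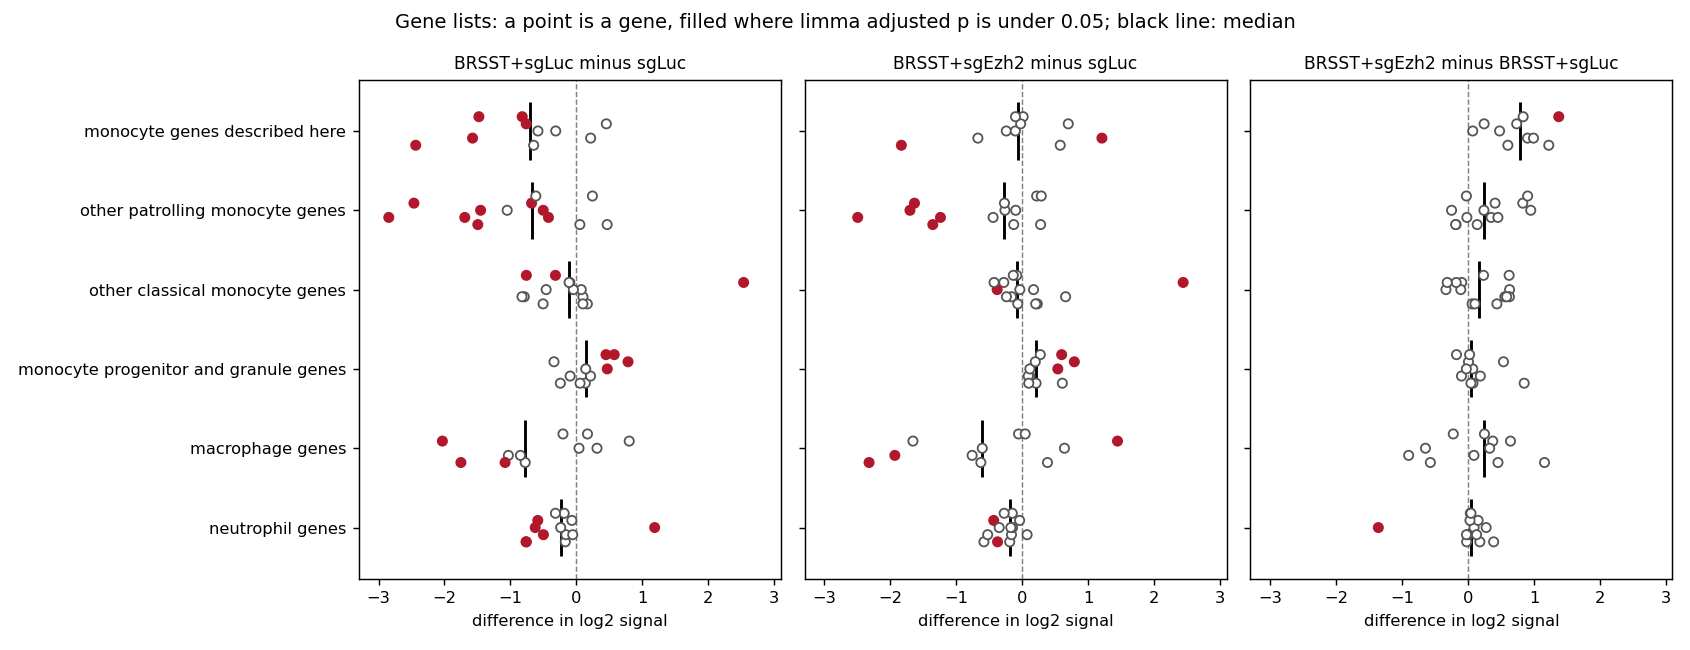
Difference in log2 signal (horizontal axis) of every tested gene in 6 lists (vertical axis) in the 3 comparisons, filled where limma's adjusted p was under 0.05, with the list median as a black line. In BRSST+sgLuc against sgLuc the medians are -0.70 for the 10 genes described here, -0.68 for other patrolling genes and -0.11 for other classical genes. Those of the other lists shown are -0.776 for macrophage, -0.237 for neutrophil and 0.142 for progenitor and granule genes.

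Of 16 monocyte transcription factors tested, 2 rose and 4 fell in BRSST+sgLuc against sgLuc, where 10.8% of all genes tested rose and 11.7% fell. For the other counts in this paragraph, the shares were 5.51% and 3.86% in BRSST+sgEzh2 against sgLuc. Between the BRSST groups they were 0.67% and 0.113%. Irf8, which directs progenitors to the monocyte and dendritic lineages, fell by 1.23 ± 0.21 (limma adjusted p = 0.00144), with arrays at 9.62 to 9.82 with sgLuc and 7.92 to 9.18 with BRSST+sgLuc. Irf4, an interferon regulatory factor of dendritic and B cells, is counted among those that fell but passed the filter only through sgLuc, so its differences from sgLuc, -2.06 ± 0.33 in BRSST+sgLuc and -1.72 ± 0.35 in BRSST+sgEzh2, are a description. In BRSST+sgEzh2 against sgLuc, 3 of the 16 rose and 2 fell, Irf4 among them. Irf5, an activator of inflammatory genes in macrophages, was the 1 of 16 that rose from BRSST+sgLuc to BRSST+sgEzh2 (0.52 ± 0.11, limma adjusted p = 0.0401), a call lost without any of 6 arrays, all 4 BRSST+sgEzh2 arrays and BRSST+sgLuc replicates 1 and 4. Of 11 genes of CSF1 signalling and myeloid growth factor receptors, 3 fell in BRSST+sgLuc against sgLuc, with Csf3r, the G-CSF receptor, at -0.76 ± 0.10 (limma adjusted p = 0.000304) and Csf2ra, the GM-CSF receptor, at -0.59 ± 0.11 (limma adjusted p = 0.00286). In BRSST+sgEzh2 1 rose and 1 fell against sgLuc, Csf1 (0.64 ± 0.17, limma adjusted p = 0.0274) and Csf3r (-0.37 ± 0.11, limma adjusted p = 0.0438). Csf1 lost that call without any of 6 arrays and Csf3r without any of 7. None of the 11 passed between the BRSST groups (2 with an unadjusted p under 0.05).

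For the lists of this paragraph, the shares of all genes tested were 10.8% that rose and 11.7% that fell in BRSST+sgLuc against sgLuc. They were 5.51% and 3.86% in BRSST+sgEzh2 against sgLuc, and 0.67% and 0.113% between the BRSST groups. Of 6 genes of the monocyte chemokine and egress list tested, 0 passed in BRSST+sgLuc against sgLuc by limma (1 with an unadjusted p under 0.05). Ccl2, the ligand of CCR2, lay 0.65 ± 0.23 above sgLuc there (limma adjusted p = 0.0548) and 0.83 ± 0.24 above it in BRSST+sgEzh2 (limma adjusted p = 0.045), the 1 of 6 that rose, lost without any of 8 arrays. In BRSST+sgEzh2 against BRSST+sgLuc 0 passed by limma (0 with an unadjusted p under 0.05). Of 5 Fc gamma receptor genes, 1 fell in BRSST+sgLuc against sgLuc, the neonatal Fc receptor gene Fcgrt (-1.13 ± 0.34, limma adjusted p = 0.0305, lost without any of 6 arrays). Fcgrt passed the filter only with the sgLuc arrays, so this count of 1 is a description, and 0 passed by limma in the other comparisons (1 with an unadjusted p under 0.05 in each). Of 8 other Ms4a family genes, 3 fell and 1 rose in BRSST+sgLuc against sgLuc; Ms4a4c, Ms4a6b and Ms4a7, the 3 that fell, each lost the call without any of 7 arrays. In the other comparisons 0 passed by limma (2 against sgLuc and 1 between the BRSST groups with an unadjusted p under 0.05). Of 3 other Ly6 family genes tested, 1 fell against sgLuc in each BRSST group, Ly6d, a gene of lymphoid progenitors (-2.83 ± 0.69 in BRSST+sgLuc, limma adjusted p = 0.0105, and -2.88 ± 0.73 in BRSST+sgEzh2, limma adjusted p = 0.0242). The call in BRSST+sgEzh2 was lost without any of 6 arrays (limma adjusted p up to 0.0776). Of 11 progenitor and granule genes, 4 rose in BRSST+sgLuc and 3 in BRSST+sgEzh2 against sgLuc, and 0 fell. Ctsg, cathepsin G of early granulocytes and monocytes, rose by 0.78 ± 0.10 (limma adjusted p = 0.000177) and 0.79 ± 0.10 (limma adjusted p = 0.000292). In BRSST+sgEzh2 against BRSST+sgLuc 0 of 11 passed by limma (1 with an unadjusted p under 0.05).

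Markers of other cells moved in the same comparisons, and their part in the results above was not tested. Against sgLuc, 8 of 9 B lineage, 7 of 9 T and NK, 5 of 9 dendritic and 5 of 7 basophil and eosinophil genes fell in BRSST+sgLuc, and 2 of 9, 1 of 9, 4 of 9 and 4 of 7 in BRSST+sgEzh2. Of these tested genes, 2 B lineage, 3 T and NK, 3 dendritic and 1 basophil and eosinophil gene passed the filter only through sgLuc, as did 4 of the 11 macrophage genes, so the counts are descriptions. Over all genes tested, 11.7% fell and 10.8% rose in BRSST+sgLuc against sgLuc, and 3.86% and 5.51% in BRSST+sgEzh2 against sgLuc. Between the BRSST groups, 0.113% fell and 0.67% rose. Median differences of BRSST+sgLuc from sgLuc, also descriptions, were -2.436 for B lineage, -2.01 for T and NK, -1.608 for dendritic and -1.282 for basophil and eosinophil genes. They were -0.776 for macrophage, -0.237 for neutrophil, 0.669 for erythroid and 0.315 for megakaryocyte genes. The mean signal of the dendritic list, some of whose cells share Cx3cr1 and Csf1r with monocytes, ran from 9.03 to 9.38 with sgLuc, 7.29 to 8.81 with BRSST+sgLuc and 7.23 to 7.90 with BRSST+sgEzh2. That of the T and NK list, whose cells can also carry Cx3cr1, ran from 8.32 to 8.73, 6.42 to 8.05 and 6.34 to 8.59. The macrophage list ran from 7.52 to 7.61, 6.79 to 7.73 and 6.88 to 7.61, with 3 of 11 lower in BRSST+sgLuc against sgLuc, and 2 lower and 1 higher in BRSST+sgEzh2. Of 13 neutrophil genes, 5 fell and 1 rose in BRSST+sgLuc against sgLuc and 2 fell in BRSST+sgEzh2, and 1 fell between the BRSST groups. Of 9 erythroid genes, 4 rose in BRSST+sgLuc against sgLuc. The erythroid list ran from 7.20 to 7.61 with sgLuc, 7.87 to 8.75 with BRSST+sgLuc and 7.15 to 7.82 with BRSST+sgEzh2. All 9 erythroid genes were lower in BRSST+sgEzh2 than in BRSST+sgLuc, and 0 passed by limma (7 with an unadjusted p under 0.05). Of 4 megakaryocyte genes, 1 rose in BRSST+sgLuc against sgLuc.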

How the data were processed

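The authors deposited a table of log2 signals. The submitters' processing notes name R 3.5.01 and oligo. The sources used here do not give the background correction or the normalization, and the log2 scale was read from the values. Per the labels' protocols, 2 ng of RNA was amplified with 10 cycles of PCR, which can distort large differences. The number of arrays limits the precision.

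The table has 22203 rows, of which 19572 carry 1 gene symbol, 0 several and 2631 none. The symbols came from the platform annotation, and 0 changed against RefSeq. Where a gene had several rows, that of the highest mean was used. Genes above the array median on at least 4 arrays were tested (10601), by lmFit and eBayes of limma 3.58.1 (R 4.3.3; 1 fit over 13 arrays, no covariates), Benjamini-Hochberg adjustment over all of them and a threshold of 0.05. The fit was tested on simulated data. Within-array differences were tested with scipy 1.17.1. Figures used matplotlib 3.10.9.

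The members and the gene lists were chosen with earlier results of these data known. All 10 genes are described. Of each other list, up to 3 called genes of largest change per comparison could be named, or the 1 of smallest p, and not all of these are. Genes most like Cx3cr1, Ccr2 and Ly6c2 are the 3 of highest r outside the 10, leaving out symbols of Gm and digits or ending in Rik. Groups follow the labels.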

Additional observations from a re-analysis of the deposited data

Results flagged for a closer look

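In 30 groups of 4 or 5 arrays (10 genes in 3 groups), 4 single arrays stood apart from the rest of their group by the gap to the nearest other array over the group's range. Chance flags about 1 in 20 groups. Cx3cr1 was 7.52 on BRSST+sgEzh2 replicate 4, above the next array at 6.73. Ly6c2 was 12.13 on BRSST+sgEzh2 replicate 2, below the next at 12.49. Nr4a1 was 10.27 on BRSST+sgEzh2 replicate 3, above the next at 9.58. Klf4 was 9.16 on BRSST+sgLuc replicate 3, above the next at 8.22. The 4 flags fall on 4 different arrays.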

How the results depend on the processing

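Alternatives were a replicate block, array quality weights, equal medians, quantile normalization, no filter or a stricter one (75th percentile), trended and robust variance, the mean of a gene's rows, the Y-linked class as a block, only the 2 groups compared, a threshold of 0.01, BRSST+sgLuc without replicates 2 and 5, and each array left out in turn; the high Y-linked class alone was chosen after seeing the data. Between the BRSST groups, 1 of the 10 genes passed, and 0 with equal medians, the replicate block, only 2 groups or the threshold of 0.01, 2 without BRSST+sgLuc replicates 2 and 5, 3 with trended and robust variance, 4 with the Y-linked block, 6 with array weights, 6 in the high class and 0 to 4 with an array left out. Between BRSST+sgLuc and sgLuc it was 5, and 9 with array weights or in the high class, and 4 to 7 with an array left out. Between BRSST+sgEzh2 and sgLuc it was 2, and 1 with the stricter filter, which leaves Cx3cr1 untested, 5 with array weights, 4 in the high class and 2 with any array left out. Over all genes, 71 passed higher and 12 lower between the BRSST groups, from 17 and 0 with only 2 groups to 694 and 345 with array weights. It was 1149 and 1240 for BRSST+sgLuc and 584 and 409 for BRSST+sgEzh2 against sgLuc, and 2405 and 2474 and 1571 and 1405 with array weights. The cause was not tested.

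Signs turned for Nr4a1 between the BRSST groups (-0.268 with array weights, -0.012 without BRSST+sgLuc replicates 2 and 5, -0.729 in the high class) and, against sgLuc in BRSST+sgEzh2, for Csf1r (-0.016 with quantile normalization, -0.118 with the Y-linked block, -0.087 in the high class, -0.117 to 0.086 with an array left out), Klf4 (-0.139 to 0.077) and Mpeg1 (-0.238 to 0.029). The change of Ly6c2 minus Cx3cr1 against sgLuc was 1.87 to 2.28 in BRSST+sgLuc and 1.45 to 1.78 in BRSST+sgEzh2 with an array left out, and that of Ccr2 minus Cx3cr1 0.81 to 0.98 and 1.04 to 1.37. Without BRSST+sgLuc replicates 2 and 5 they were 1.87 and 0.81 in BRSST+sgLuc (exact permutation adjusted p = 0.0857), where no p under 0.05 was possible. With an array left out, both calls in BRSST+sgEzh2 ended (adjusted p from 0.0686 to 0.0857), as no p under 0.05 was then possible. Both in BRSST+sgLuc ended without any one sgLuc array (adjusted p = 0.0857), where no adjusted p under 0.05 was possible. They held without any one BRSST+sgLuc array (adjusted p = 0.0429). Replicate numbers did not pair the arrays: deviations of same-numbered arrays correlated at -0.176 to 0.192. With the replicate block, 0 members passed between the BRSST groups, with Mpeg1 at 1.38 (limma adjusted p = 0.112).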
